A study of Mus musculus with 2 samples.

Results

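The nuclear-encoded subunits of oxidative phosphorylation were followed across the myeloid cells of a mouse malignant pleural effusion. The genes were chosen by symbol (the Nduf, Sdh, Uqcr, Cyc1, Cox4 to Cox8 and Atp5 families): 85 of the 27998 genes listed matched, and the 80 with 20 or more UMIs over both libraries are described here. A UMI is a molecular tag, so a UMI count is a count of captured RNA molecules. The 80 genes comprise 35 of complex I, 4 of complex II, 9 of complex III, 15 of complex IV (Ndufa4, named for complex I, is counted there), 15 of complex V, and 2 genes with Atp5 symbols that are not ATP synthase subunits, Atp5s and Atp5sl. Below the minimum were Cox6a2 with 12 UMIs, Ndufa4l2 with 2, and Cox7b2, Cox8b and Cox8c with 0.

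Oxidative phosphorylation takes place in the inner mitochondrial membrane. Complexes I and II pass electrons to ubiquinone, complex III passes them on to cytochrome c and complex IV to oxygen. Complexes I, III and IV pump protons, and complex V, the ATP synthase, lets them flow back through a rotating ring to make ATP. Complex II is encoded wholly in the nucleus; each of the other complexes also needs subunits from the mitochondrial genome, the mt- genes. Neutrophils are known for few mitochondria and a metabolism that leans on glycolysis, while macrophages and dendritic cells hold more.

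The study has 1 group: mice injected in the pleural cavity with LLC cells, a mouse lung carcinoma line, whose pleural fluid was collected 10 days later. Live CD45+ CD11b+ cells (leukocytes of mostly myeloid kinds) were sorted and profiled with a droplet kit that reads the 3' end of transcripts, in 2 libraries. No tumour-free animal is part of the group. The labels give no strain, age or number of animals per library. P-values therefore measure only how unevenly the gates differed between these 2 libraries, once a shift common to all gates was taken out. That spread is pooled over the gates, drawn toward a value shared across genes, and may be technical.

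Library 1 held 1141 cell barcodes (median 9894 UMIs) and library 2 held 2908 (median 1954.5 UMIs), with 4 barcode sequences in common. Cells were gated by marker genes, none of them a subunit. In libraries 1 and 2, the gates held 90 and 1591 neutrophils (S100a8, S100a9, Retnlg, Csf3r), 315 and 480 C1q macrophages (C1qa, C1qb, C1qc, Ms4a7), 328 and 341 monocytes (Ly6c2, Chil3, Plac8, with little C1q RNA), 128 and 37 dendritic cells (Cd209a, Flt3, Ccr7) and 26 and 24 large resident macrophages (Alox15, Prg4, Gata6). B cells (26 and 13) and T or NK cells (3 and 47) passed their gates too, although the sort was for myeloid cells; 1 of the libraries had under 20 cells of each, so they entered no test. The gates left 185 and 246 cells without a type. In library 2, whose cells carry antibody tags BC2 and BC3 that the labels do not explain, 1544 of 1591 neutrophils lay on the BC3 side, against 9 of 480 C1q macrophages, 49 of 341 monocytes and 15 of 37 dendritic cells. In that library a difference between neutrophils and the other gates and a difference between tag sides largely cannot be told apart.

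Summed over all 5 complexes, subunit RNA was lower in neutrophils than in any mononuclear gate of either library. The nuclear-encoded subunits took 16370 ± 3239 CPM (UMIs per 1000000 UMIs of the gate; SD, n = 2 libraries) in neutrophils. They took 27120 ± 650.5 CPM in C1q macrophages, 28140 ± 643.5 in resident macrophages, 26420 ± 1450 in monocytes and 23500 ± 49.5 in dendritic cells. The 13 mt- genes took 7384 ± 2753 CPM in neutrophils, 16570 ± 155.6 in C1q macrophages, 15880 ± 1054 in resident macrophages, 15870 ± 495 in monocytes and 14460 ± 282.8 in dendritic cells. Both neutrophil values lay below all 8 mononuclear values for each of the 5 complexes and for the mt- genes. Each is a share of the gate's RNA, so a lower share and more RNA of other genes cannot be told apart.

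By complex, the geometric mean over the mononuclear gates exceeded the neutrophil level 1.70-fold for complex I, 1.61-fold for complex II, 1.69-fold for complex III, 1.42-fold for complex IV and 1.76-fold for complex V. For the mt- genes the same ratio was 2.20-fold. It was 2.68-fold for those of complex I, 2.12-fold for that of complex III, 1.87-fold for those of complex IV and 2.86-fold for those of complex V. The 2 libraries did not give the same size: the log2 ratio of all nuclear-encoded subunits was -0.51 in library 1 and -0.88 in library 2, and that of the mt- genes -0.74 and -1.53.

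**Figure D1:**
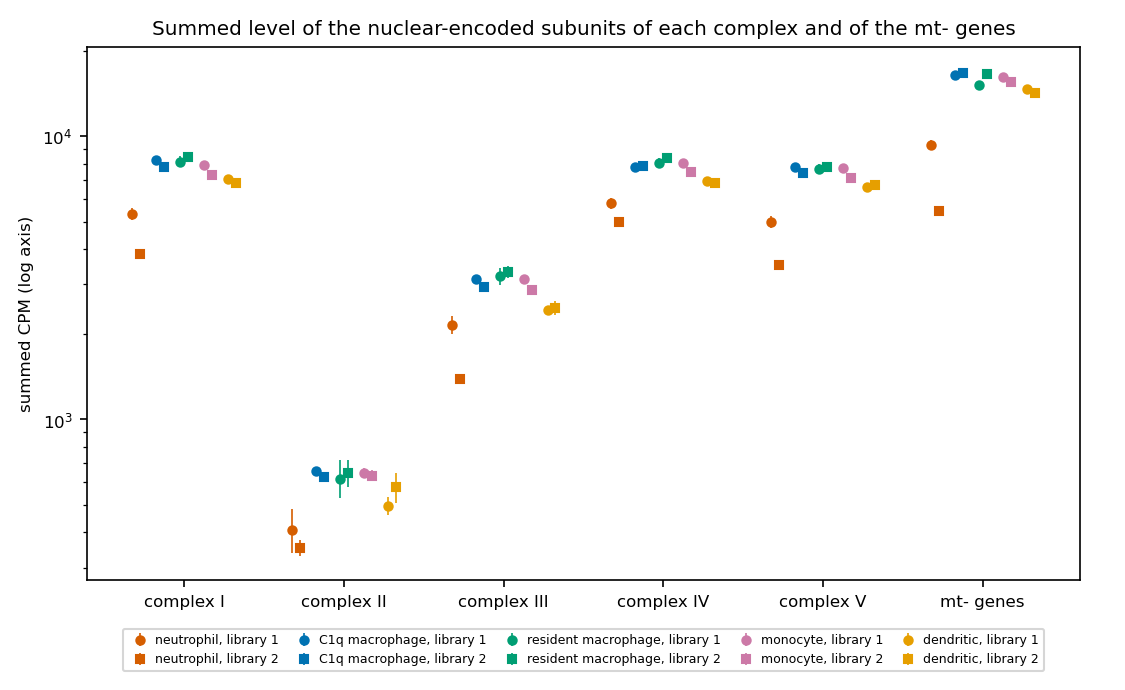
Summed CPM (log axis) of the nuclear-encoded subunits of each complex and of the mt- genes, in the neutrophil gate and the 4 mononuclear gates (colour) by library (circle, library 1; square, library 2), with exact 95% Poisson intervals that cover counting error only. The orange neutrophil points are the lowest of these 5 gates in every column, and the library 2 neutrophils lie below those of library 1.

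The gap between the libraries was smaller with a stricter neutrophil gate. The gate asked for 100 marker UMIs per 10000. With 500, a setting chosen after seeing the data, the nuclear-encoded subunits took 13230 CPM in library 1 and 11900 in library 2, and the mt- genes 4680 and 4182. In library 2, the 47 neutrophils on the BC2 side had a marker level of 37380 CPM, against 142700 in the 1544 on the BC3 side. Their median depth was 4695 UMIs against 1303, and their C1q markers summed to 403.2 CPM against 167.3. Nuclear-encoded subunits took 24570 CPM in the first and 12640 in the second. Of the other gates only monocytes had enough cells on both sides to compare, and there the 292 cells of the BC2 side had 25470 CPM and the 49 of the BC3 side 24650. Within the BC3 side alone, neutrophils thus held 12640 CPM of nuclear-encoded and 4196 of mt- RNA, and monocytes 24650 and 15010.

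Gene by gene, the neutrophil gate was tested against the mean of the C1q macrophage, resident macrophage, monocyte and dendritic gates. The test was edgeR's quasi-likelihood test with the library as a block, on 9429 genes, with calls at a Benjamini-Hochberg adjusted p of 0.05. Of the 80 subunit genes 78 passed the filter on low counts (Cox4i2 and Atp5s did not), and of these 4 were higher in neutrophils, 36 were lower and 38 were not called. Among all genes tested, 26.1% were called higher and 21.7% lower. The median log2 fold change of the 78 was -0.42, against -0.09 over all genes. Log2 values are on the TMM scale, which sets the level by the bulk of genes common to the gates.

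That scale matters here. Scaled by summed UMIs alone, the median over all genes moved from -0.09 to -0.63, calls over all genes went from 2459 higher and 2044 lower to 1519 higher (16.1%) and 3796 lower (40.3%), and 0 subunit genes were higher and 61 lower (median -0.905).

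**Figure D2:**
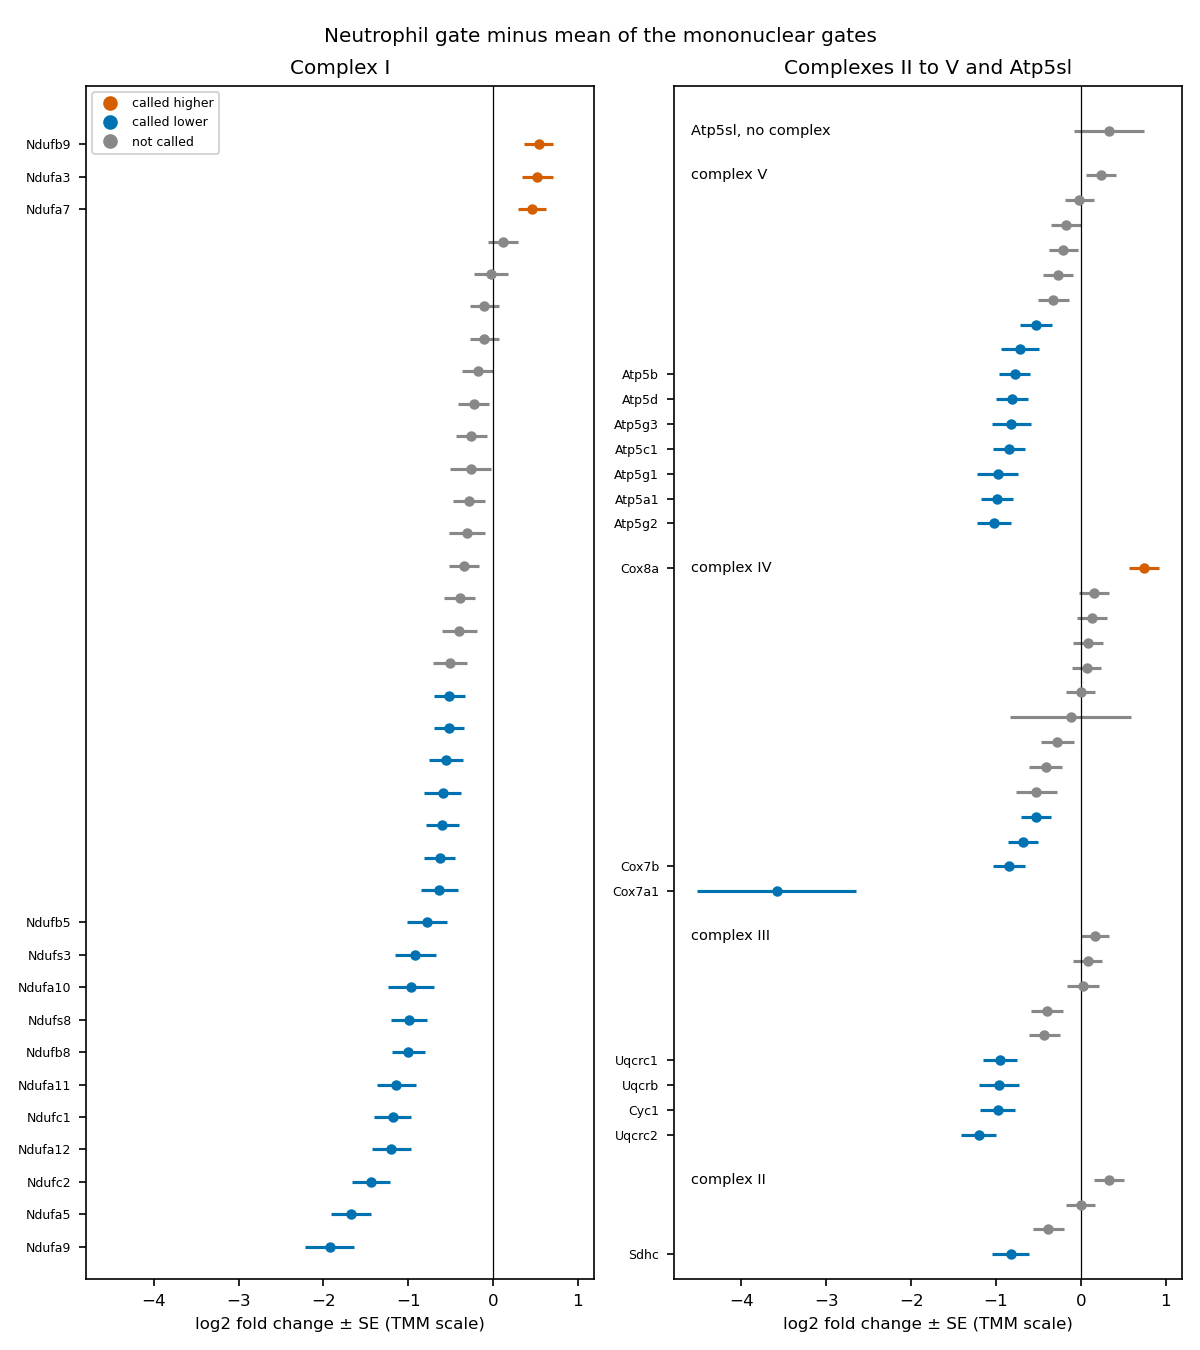
Log2 fold change (TMM scale) with its standard error for each of the 78 subunit genes, neutrophil gate minus the mean of the mononuclear gates, by complex. Names are shown for the genes called higher and for log2 fold changes below -0.75. Values run from -3.59 for Cox7a1 to 0.745 for Cox8a; 36 genes (blue) were called lower and 4 (orange) higher; scaled by summed UMIs alone, 0 were called higher and Ndufa7 changed sign.

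In complex I, the NADH dehydrogenase, 18 of 35 genes fell and 3 rose. The largest differences were in accessory subunits, which surround the catalytic core and make up 28 of the 35 genes. As a class they were not the lower: their median log2 fold change was -0.455, against -0.557 for the 7 core genes. Of the accessory genes 14 fell and 3 rose, and of the core genes 4 fell and 0 rose. Ndufa9, an accessory subunit near the ubiquinone site, stood at 29.0 CPM in library 1 neutrophils and 12.6 in library 2, against 74.7 to 108 over the 8 mononuclear values. Its log2 fold change was -1.93 ± 0.286 (SE; adjusted p 8.07e-05). Ndufa5 stood at 48.3 and 20.7 CPM against 94.0 to 172, a log2 fold change of -1.67 ± 0.234 (adjusted p 4.82e-05). The neutrophil values of both genes lay below every mononuclear value, and those of library 2 were the lower ones.

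Ndufc2 and Ndufc1, which pair in the membrane arm, stood at 90.2 and 45.6 CPM (mononuclear 181 to 269) and at 90.2 and 64.75 CPM (147.5 to 327). Their log2 fold changes were -1.44 and -1.18, with adjusted p of 0.000112 and 0.000516 by edgeR. Ndufa12 (51.5 and 37.9 CPM, mononuclear 102.5 to 209.9) and Ndufa11 (109.5 and 63.2 CPM, mononuclear 199.8 to 312.5) fell by 1.20 and 1.14 on the log2 scale. Neither gene's neutrophil values overlapped those of the mononuclear gates.

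Among the core subunits, which carry the flavin and the iron-sulfur clusters, Ndufs8 fell by 0.99, Ndufs3 by 0.92 and Ndufv2 by 0.63 on the log2 scale. Ndufv1, the flavin-binding subunit, had a log2 fold change of -0.51 that missed the threshold (adjusted p 0.0503), and Ndufs1 (-0.265) and Ndufs7 (-0.18) were not called. The 3 complex I genes called higher were the accessory subunits Ndufb9 (log2 fold change 0.54, adjusted p 0.0178), Ndufa3 (0.52, adjusted p 0.0265) and Ndufa7 (0.46, adjusted p 0.0369). Their levels were not apart: Ndufb9 had 341.4 and 289.3 CPM in neutrophils against 234 to 358, Ndufa3 367.1 and 399.2 against 300.8 to 428, and Ndufa7 386.4 and 342.5 against 315.8 to 422.3. None of the 3 was called without the TMM factor, where their log2 fold changes were 0.07, 0.04 and -0.02.

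In complex II, succinate dehydrogenase, 1 of 4 genes was called. Sdhc, a membrane anchor, had 54.75 and 31.0 CPM in neutrophils against 80.6 to 108.4, with a log2 fold change of -0.83 ± 0.216 (adjusted p 0.00588). The catalytic subunit Sdha (80.5 and 83.1 CPM) overlapped the mononuclear range, and the other anchor Sdhd (96.6 and 98.1 CPM) lay just below its lowest value of 98.8; neither was called, with log2 fold changes of 0.33 and 0.00. The iron-sulfur subunit Sdhb had 173.9 and 140.2 CPM against 232.7 to 317.8 and a log2 fold change of -0.38 (adjusted p 0.101).

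In complex III, 4 of 9 genes fell, among them both large core proteins. Uqcrc2 stood at 41.9 and 30.65 CPM against 89.1 to 153.1, a log2 fold change of -1.21 ± 0.206 (adjusted p 0.000283). Uqcrc1 fell by 0.95 and Uqcrb, which binds near the quinone site, by 0.97 on the log2 scale. Cyc1, the cytochrome c1 that hands electrons to cytochrome c, had 54.75 and 37.2 CPM against 84.5 to 144.4 and fell by 0.98. The small subunits Uqcrh, Uqcrq and Uqcr10 had log2 fold changes between 0.02 and 0.17 and were not called, nor were Uqcr11 and the iron-sulfur protein Uqcrfs1 (-0.43 and -0.40).

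In complex IV, cytochrome c oxidase, 14 genes were tested; Cox8a rose and Cox7b, Cox5a, Cox6c and Cox7a1 fell. Cox8a, a small structural subunit, had 991.9 CPM in library 1 neutrophils and 1069 in library 2. The mononuclear gates ranged from 732.5 to 907.1, so the neutrophil values were above all of them. Its log2 fold change was 0.745 ± 0.177 (adjusted p 0.0032), and 0.27 (adjusted p 0.203) without the TMM factor. Cox7b, Cox5a and Cox6c fell by 0.845, 0.68 and 0.53. Cox7a1 had 1 UMI in library 1 neutrophils (3.22 CPM, exact 95% interval 0.0815 to 17.9) and 0 in library 2 (exact upper limit 1.41 CPM); its fitted value of -3.59 rests on that and is no measured fold.

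Cox4i1, Cox6a1, Cox6b1 and Cox7a2, the common forms of their paralog pairs, were not called. Cox4i1 had 979 and 665.5 CPM in neutrophils against 863.7 to 1364 (log2 fold change 0.00), and its hypoxia-linked copy Cox4i2 had 1 and 3 UMIs. Cox6a1 (415.4 and 417.6 CPM, log2 fold change 0.13) and Cox6b1 (663.4 and 649.4 CPM, 0.16) were close to the zero of the TMM scale, as was Cox7a2 (322 and 383.9 CPM, 0.09). In CPM, both neutrophil values of Cox6a1 and of Cox6b1 lay below the mononuclear ranges of 421.1 to 627.8 and 678.9 to 906.9. For Cox7a2 that range was 333.4 to 531.9, and only library 2 neutrophils lay within it. Cox6b2, the testis form, had 187 UMIs in all and a log2 fold change of -0.12 ± 0.713. Ndufa4 stood at 331.7 and 147.1 CPM against 258 to 697.4, so library 1 overlapped the range and library 2 did not (log2 fold change -0.52, adjusted p 0.0854).

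In complex V, 9 of 15 genes fell and none rose. At an unadjusted p under 0.05 it was the same count, 9, against 5163 of all 9429 genes in either direction. The 9 genes that fell include most of the rotary core. The head subunits Atp5a1 (alpha) and Atp5b (beta) fell by 0.985 and 0.775 on the log2 scale, the stalk subunits Atp5c1 (gamma) and Atp5d (delta) by 0.845 and 0.81, and Atp5o, which ties head to stator, by 0.71. Of the other subunits Atp5j2 fell by 0.53, and Atp5e (epsilon), Atp5f1, Atp5h and Atp5j (peripheral stalk), Atp5k and Atp5l were not called, with log2 fold changes from -0.32 to 0.24. Atp5sl, which is not a subunit, was not called (0.33 ± 0.409).

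The 3 genes of the c subunit, the ring that protons turn, fell together. Atp5g1 had 238.3 and 97.3 CPM in neutrophils against 310.2 to 517.2 in the mononuclear gates, a log2 fold change of -0.98 ± 0.24 (adjusted p 0.00396). Atp5g2 had 209.3 and 89.3 CPM against 273.6 to 564.3 (-1.025 ± 0.199, adjusted p 0.000757). Atp5g3 had 186.8 and 64.4 CPM against 189.1 to 344.5 (-0.82 ± 0.228, adjusted p 0.00887). Library 1 neutrophils came close to the mononuclear range for Atp5g3, and library 2 neutrophils were far below it for all 3.
These genes are shown because 3 loci on different chromosomes make 1 protein: Atp5g1 lies on chromosome 11 (96068852 to 96075670, minus strand), Atp5g2 on chromosome 15 (102662864 to 102672352, minus strand) and Atp5g3 on chromosome 2 (73908447 to 73911326, minus strand; GENCODE M21, mm10). The last 75 codons of each coding sequence are given 5′ to 3′ from GENCODE M21 transcripts, with capitals at the 57 of 225 bases that differ among the 3.
Atp5g1: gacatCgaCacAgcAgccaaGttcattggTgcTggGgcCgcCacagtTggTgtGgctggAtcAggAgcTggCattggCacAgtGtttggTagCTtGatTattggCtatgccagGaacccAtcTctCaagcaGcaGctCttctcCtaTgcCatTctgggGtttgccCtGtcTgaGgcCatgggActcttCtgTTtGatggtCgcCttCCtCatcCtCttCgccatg
Atp5g2: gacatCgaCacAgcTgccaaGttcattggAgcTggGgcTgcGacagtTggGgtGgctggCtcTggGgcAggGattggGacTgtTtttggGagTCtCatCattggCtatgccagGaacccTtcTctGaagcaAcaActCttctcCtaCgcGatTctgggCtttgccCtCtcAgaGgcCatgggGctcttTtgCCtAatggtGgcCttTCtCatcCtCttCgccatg
Atp5g3: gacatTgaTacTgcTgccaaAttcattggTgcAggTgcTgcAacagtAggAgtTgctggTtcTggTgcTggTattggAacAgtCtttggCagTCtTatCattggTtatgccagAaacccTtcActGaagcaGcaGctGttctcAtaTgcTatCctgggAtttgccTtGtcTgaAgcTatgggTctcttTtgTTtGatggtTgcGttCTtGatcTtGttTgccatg
Atp5g1 and Atp5g2 differ in 32 codons, Atp5g1 and Atp5g3 in 42, and Atp5g2 and Atp5g3 in 44; every one of these differences is synonymous, so the encoded residues are the same. Reads of the 3' end come mainly from the untranslated ends, which are not compared here.

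**Figure D3:**
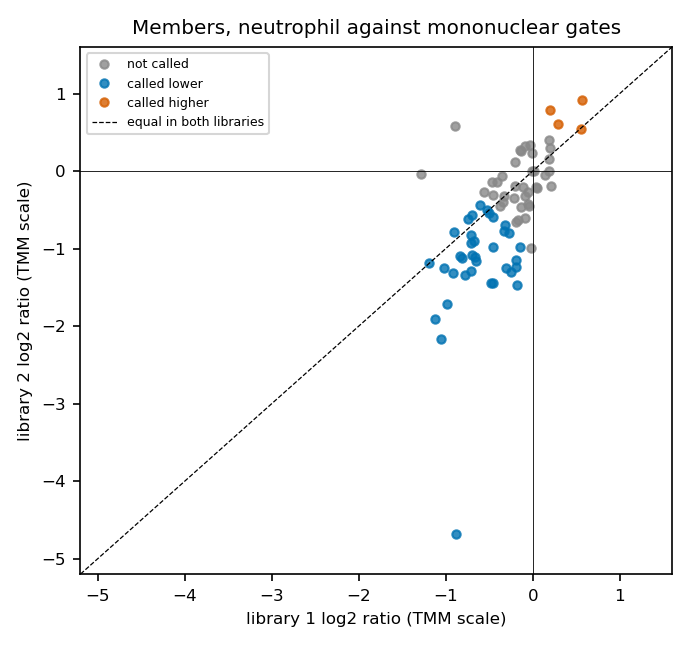
Log2 ratio (TMM scale) of neutrophils to the mean of the mononuclear gates for each of the 78 subunit genes in library 1 (x axis) and library 2 (y axis). All 40 called genes have 1 sign in both libraries. Of all genes called (2459 higher and 2044 lower), 4258 do so too. The calls rest on these same 2 libraries. The lowest point is Cox7a1 at -0.88 and -4.69.

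Of the mt- genes, 12 were tested and 10 fell in neutrophils, 0 rose. The median log2 fold change was -0.695. Among complex I genes mt-Nd1 (611.9 and 256.3 CPM against 1375 to 1729 in C1q macrophages) fell by 1.33 and mt-Nd2 by 1.14; mt-Nd4, mt-Nd4l and mt-Nd5 fell by 0.53, 0.87 and 0.75. mt-Cytb of complex III fell by 0.61. In complex IV mt-Co2 and mt-Co3 fell by 0.61 and 0.64, and mt-Co1, at 2206 and 1651 CPM, was not called (-0.17, adjusted p 0.464). In complex V mt-Atp6 and mt-Atp8 fell by 1.04 and 1.75. mt-Nd3 (-0.49) was not called either, and mt-Nd6, with 127 UMIs in all, did not pass the filter. mt-Atp8 and mt-Atp6, and mt-Nd4l and mt-Nd4, share a transcript, so their reads may be assigned to either gene.

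Nuclear-encoded subunit RNA was set against mt- RNA in each gate. Neutrophils held 2.00 nuclear-encoded subunit UMIs for each mt- UMI in library 1 and 2.59 in library 2. The ratio was 1.68 and 1.598 in C1q macrophages, 1.83 and 1.72 in resident macrophages, 1.69 and 1.64 in monocytes and 1.61 and 1.65 in dendritic cells; the neutrophil values were above all 8. With the gate at 500 marker UMIs per 10000 they were 2.83 and 2.85. On the BC3 side of library 2 the ratio was 3.01 in neutrophils and 1.64 in monocytes, and the 47 BC2-side neutrophils had 1.70. Cells over 10% mt- UMIs had been left out of all gates, and without that limit the values kept within their spread.

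B cells lay at the other end. Their 26 and 13 cells held 0.479 and 0.532 nuclear-encoded UMIs per mt- UMI. Nuclear-encoded subunits took 16200 and 16640 CPM in B cells, between the 18660 and 14080 CPM of library 1 and library 2 neutrophils, so a low nuclear-encoded level was not limited to neutrophils; the mt- genes took 33840 and 31310 CPM. T and NK cells had ratios of 1.16 (3 cells) and 1.61. No test was run on either, since too few cells passed the gates.

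**Figure D4:**
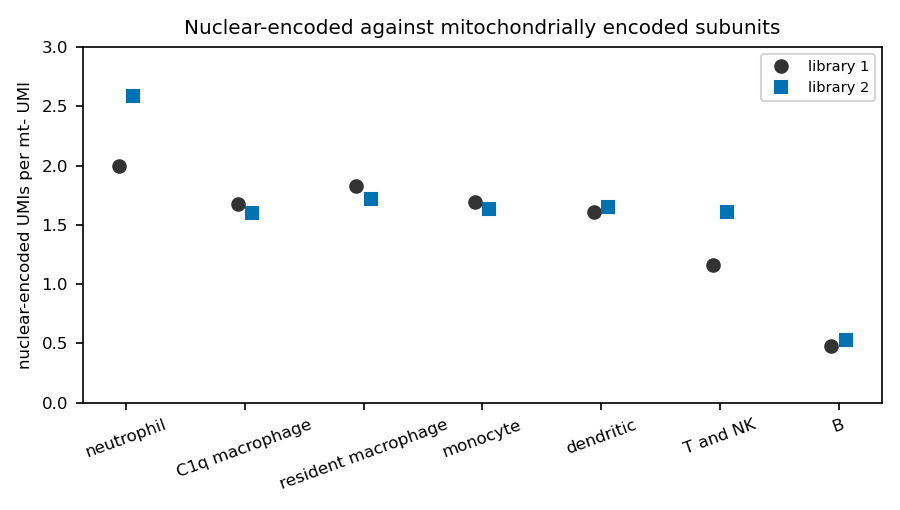
Nuclear-encoded subunit UMIs per mt- UMI in each gate, by library (circle, library 1; square, library 2). Neutrophils stand highest at 2.00 and 2.59, the 4 mononuclear gates lie between 1.598 and 1.83, and B cells, with 26 and 13 cells, are near 0.5.

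Other RNA moved with the neutrophil gate. The 7 neutrophil markers summed to 145399 and 130026 CPM in it and to 972.5 to 1826 CPM in the mononuclear gates, where all 7 were detected. Of monocyte markers 7 of 7 were detected in neutrophils, at 5739 and 4099 CPM, and of C1q markers 6 of 6, at 219 and 195.8 CPM. Markers of tumour or epithelial cells and of mast cells were at 0 in all 5 gates. The median depth was 2253.5 and 1313 UMIs per neutrophil and from 8873 UMIs upward in the mononuclear gates of library 1. Thinned to 1000 UMIs per cell, with shallower cells left out (1222 of 1591 library 2 neutrophils and all 90 of library 1 remained), neutrophils had a mean nuclear-to-mt ratio of 2.73. Of 75 subunit genes tested there 34 were lower and 4 higher, against 21.4% and 31.1% of 4106 genes. The part of free RNA in these values was not tested.

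Limited to the BC2 side of library 2, with resident macrophages left out of the mean because 13 of them remained there, the test called 0 subunit genes higher and 1 lower (Uqcrc2, -0.97), with a median of -0.15; over all genes it called 4.31% higher and 0.542% lower (390 and 49 genes). This setting, chosen after seeing the data, rests in library 2 on the 47 neutrophils described above. Those cells had a lower marker level, greater depth and more C1q RNA than BC3-side neutrophils. With the gate at 500, it was 4 higher and 51 lower, against 27.3% and 29.5% of all genes, with a median of -0.84, and the c-subunit genes fell by 2.18 (Atp5g1), 1.73 (Atp5g2) and 1.69 (Atp5g3).

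Among the mononuclear gates few subunit genes were called. The 3 contrasts described next share the C1q macrophage gate. Resident macrophages had 1 gene higher, Cox7a2l, and 0 lower. Among all genes 6.29% were called higher and 3.35% lower by edgeR. An unadjusted p under 0.05 was reached by 3 of the 78 subunit genes and by 2030 of all 9429 genes. Monocytes had 0 higher and 0 lower, where 0.127% and 0.318% of all genes were called. There 4 of the 78 had an unadjusted p under 0.05, against 815 of all 9429 genes. DESeq2 called 0 subunit genes in that contrast. Dendritic cells had 2 higher, Cox7a2l and Ndufa6, and 1 lower, Cox7a1, against 10% and 7.91% of all genes. The median log2 fold changes of the 78 genes were 0.05, -0.05 and -0.18, against -0.08, 0.00 and -0.02 over all genes.

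Cox7a2l, a paralog of Cox7a2 described as joining complexes III and IV into supercomplexes, was called higher in both resident macrophages and dendritic cells. Whether it does so in these animals, whose strain is not given, was not tested. It had 173.9 and 179.7 CPM in C1q macrophages, 500.8 and 366.3 in resident macrophages, 271 and 231.1 in monocytes and 555.1 and 416.8 in dendritic cells. Resident macrophages and dendritic cells overlapped each other and lay above all other myeloid values. The log2 fold change over C1q macrophages was 1.21 in resident macrophages (adjusted p 0.00356) and 1.51 in dendritic cells (adjusted p 0.000317). In monocytes it was 0.50 and not called (adjusted p 0.545). Neutrophils had 264.1 and 132.9 CPM, a spread that straddled the C1q macrophages. B cells had the most, 728.8 and 769.5 CPM, and T and NK cells 599.9 (3 cells) and 268. The gene lies on chromosome 17, 83501918 to 83517330, minus strand.

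Its paralogs had other patterns. Cox7a2, the form that sits in complex IV of most tissues, had 481.7 and 529.7 CPM in C1q macrophages, 489.5 and 531.9 in resident macrophages and 333.4 and 429.7 in dendritic cells. Its log2 fold changes of -0.04 and -0.35 were not called (adjusted p 0.949 and 0.314). Cox7a1, the heart and muscle form, was scarce: 16.6 and 9.28 CPM in C1q macrophages (64 and 76 UMIs), 22.4 and 14.5 in resident macrophages (6 and 7 UMIs) and 3.90 and 4.297 in dendritic cells (6 and 2 UMIs). The dendritic value was called lower (-1.74, adjusted p 0.032), and DESeq2 gave an adjusted p of 0.0893. Cox8a, Cox6a1, Cox6b1, Cox4i1 and Ndufa4 were not called in any of the 3 contrasts, nor were the Sdh genes, Cyc1 or the c-subunit genes.

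Ndufa6, an accessory subunit in the matrix arm of complex I, was called higher in dendritic cells and in neither other contrast with C1q macrophages. It had 692.8 and 427.5 CPM there, and 279.8 and 287.1 in C1q macrophages, 313.9 and 316.6 in resident macrophages, 358.5 and 301 in monocytes, and 267.3 and 167 in neutrophils. Both dendritic values were above all those of the other 4 gates, that of library 1 by far the more. B cells had 311.3 and 270.8 CPM, and T and NK cells 599.9 (3 cells, 13 UMIs) and 257.2. The log2 fold change was 1.04 ± 0.249 (adjusted p 0.00816), made of 1.47 in library 1 and 0.55 in library 2. Without the library block the call was lost (edgeR log2 fold change 1.097, adjusted p 0.0981). With library 2 on the BC2 side alone it was 1.12 (adjusted p 0.00684), and that of Cox7a2l 1.48 (adjusted p 0.00237).

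**Figure D5:**
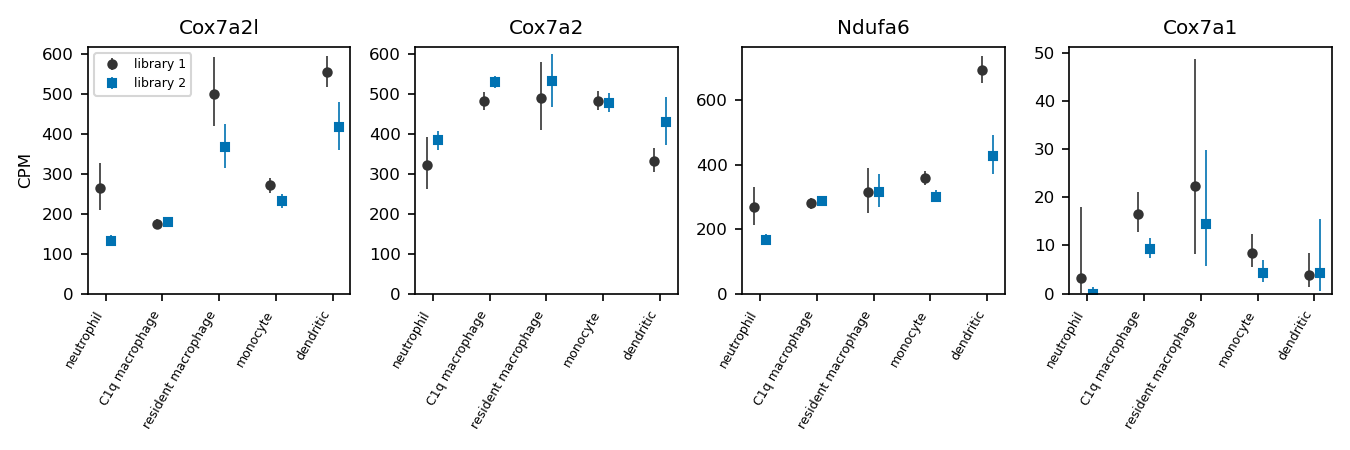
CPM of Cox7a2l, Cox7a2, Ndufa6 and Cox7a1 in the neutrophil gate and the 4 mononuclear gates, by library (circle, library 1; square, library 2), with exact 95% Poisson intervals for counting error only. Of these 5 gates Cox7a2l is highest in dendritic cells and resident macrophages and Ndufa6 in dendritic cells; Cox7a2 runs from 322 to 531.9 CPM and Cox7a1 is near 0 in neutrophils.

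Other markers moved in these gates as well. The resident gate held C1q markers at 3531 and 4832 CPM and cell cycle genes (Mki67, Top2a, Birc5, Ccnb2, a list chosen after seeing the data) at 362.5 and 244.2 CPM, against 36.2 and 22.1 in C1q macrophages. The dendritic gate held C1q markers at 133.9 and 442.6 CPM and cell cycle genes at 48.1 and 124.6. Monocyte markers were plentiful in C1q macrophages too, at 4259 and 9351 CPM, against 8556 and 13582 in the monocyte gate. Their part in the results was not tested. For resident macrophages the Cox7a2l call was lost with cells thinned to 1000 UMIs (log2 fold change 0.95, adjusted p 0.24) and without the library block (log2 fold change 1.235, adjusted p 0.0981).

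The wider mitochondrial gene lists were read out of the same fit, in which 21.7% of all genes were lower in neutrophils and 26.1% higher. In neutrophils 44 of 76 mitochondrial ribosomal protein genes fell and 3 rose, Mrps27, Mrps22 and Mrpl16 with the largest changes (-3.08, -2.68 and -2.44). Of assembly factors, which build the complexes, 16 of 43 fell and 4 rose, led by the complex I factors Ndufaf5 and Ecsit (fitted values -3.85 and -3.81) and Ndufaf4 (-2.25). Ndufaf5 had 0 and 1 UMIs in neutrophils, Ecsit 0 and 2, Mrps27 1 and 1 and Mrps22 0 and 4, so their fitted values are no measured folds. Of genes of the tricarboxylic acid cycle and its entry, 11 of 19 fell and 1 rose, led by isocitrate dehydrogenase Idh2 (-2.44), fumarase Fh1 (-2.21) and Idh3a (-1.64). Of carriers and control proteins 11 of 21 fell and 1 rose, among them the ADP/ATP exchanger Slc25a4 (-2.65), Etfa (-1.665) and Atpif1, the inhibitor of ATP synthase (-1.16). That list also holds Ndufab1 and Usmg5, subunits of complexes I and V whose symbols the selection did not match.

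The last pair of lists was small. Of 12 genes of mitochondrial biogenesis 4 fell and 4 rose, a split with no clear direction, as over all genes. The mitochondrial RNA polymerase Polrmt (0 and 2 UMIs in neutrophils, fitted value -2.385) and Pprc1 (0 and 3 UMIs, -2.34) were lower, fitted values that are no measured folds, and Gabpb1, part of a factor that binds many subunit promoters, was higher (1.33). Of 7 genes of mitophagy and hypoxia 4 rose and 1 fell; Bnip3, a mitophagy receptor induced by hypoxia, rose by 1.99, Pink1 by 1.67, and the protease Lonp1 fell by 1.21.

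In the mononuclear contrasts, the mitophagy and hypoxia list had 2 genes higher and 2 lower of 7 in resident macrophages, and the same counts in dendritic cells. Each other list had at most 2 genes called in each direction. In dendritic cells Fh1 (2.42) and Mdh2 (1.495) of the cycle were higher, Sco2, a copper chaperone of complex IV, and Coa7 were lower (-1.80 and -1.501), Ndufaf7 was higher (1.37), Slc25a5 (-0.64) and Mrpl27 (-0.68) lower, and Bnip3 fell by 2.11, Fundc1 rose by 0.81 and Hif1a fell by 0.80. In resident macrophages Bnip3 and Hif1a fell by 1.75 and 1.74 and Bnip3l rose by 1.61; Cycs, cytochrome c, fell by 0.90, Mrpl54 fell by 1.39 and Mrpl42 rose by 1.03. In monocytes 0 genes of these lists were called by edgeR. At an unadjusted p under 0.05 the mitochondrial ribosomal list had 3 of 76, against 815 of all 9429 genes.

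The 80 genes lie on 19 chromosomes. In GENCODE M21, 35 overlap another gene, 4 of them a listed gene with over 10% of their UMIs (such as Ndufs1 with Eef1b2 and Ndufs6 with Mrpl36, both on the opposite strand), and the strand setting of the counting is not given in the sources used here. Uqcrh, Atp5c1, Atp5k and Atp5l have pseudogenes named for them, so their counts are uncertain. Across the 78 genes the neutrophil log2 fold change had a Spearman correlation of -0.246 with transcript length, and of 0.103 across 9180 genes tested; genes are not independent replicates, and the numbers are descriptions.

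Promoter letters were searched in RefSeq windows of GRCm38.p6, which run from 250 bases before to 50 after a gene's start (69 windows of 64 subunit genes, and 32851 windows in all). The letters CGCATGCG, the palindromic core of the site of NRF-1, a factor known for driving respiratory genes, were in 13.043% of subunit windows and 1.872% of all. The ETS letters ACTTCCGG, searched on both strands, were in 7.246% and 3.887%, and the YY1 letters AAGATGGC in 13.043% and 2.749%. The NRF-1 core was found at 9 subunit genes: 3 were lower in neutrophils (Atp5g2, Ndufa11 and Uqcrc1) and 6 were not called (Atp5j, Atp5k, Atp5l, Cox6a1, Ndufa8 and Uqcr11). The first 3 and 2 of the others are shown, 5′ to 3′ on the gene's strand with 11 bases on each side and the match in capitals, because they hold genes of both outcomes.
Atp5g2: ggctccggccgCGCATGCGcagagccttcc
Ndufa11: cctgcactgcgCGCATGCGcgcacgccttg
Uqcrc1: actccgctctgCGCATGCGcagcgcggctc
Atp5k: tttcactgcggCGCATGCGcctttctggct
Ndufa8: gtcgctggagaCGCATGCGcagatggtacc
They lie at Atp5g2 (chr15:102671070-102671099, minus strand), Ndufa11 (chr17:56717692-56717721, plus strand), Uqcrc1 (chr9:108936668-108936697, plus strand), Atp5k (chr5:108434430-108434459, minus strand) and Ndufa8 (chr2:36049329-36049358, minus strand). That of Ndufa11 lies outside every exon of GENCODE M21, and the other 4 overlap one. A match is a description of these letters and shows no binding.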

How the data were processed

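The authors deposited, for both libraries, unscaled UMI counts per gene and barcode, already restricted to called cells. Per the submitters' processing notes, the software was Cell Ranger 3.0.1 and the build mm10; annotation release and strand use are not known.

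Cells with under 300 genes or over 10% mt- UMIs were left out. Cells passed a gate at 100 (neutrophil), 20 (C1q; monocyte, with C1q markers under 5) or 8 (others, with 3 or more UMIs) marker UMIs per 10000, limits set after viewing marker levels. Cells passing more than 1 gate were dropped as likely doublets, with exceptions. The monocyte gate was asked only of cells that passed no other gate. Cells passing the resident gate were taken out of the C1q gate, and cells passing the B or T and NK gates out of the dendritic gate. Cells that passed the neutrophil gate and also held monocyte markers were thus kept as neutrophils. For gates of at least 20 cells in both libraries, summed UMIs entered 1 fit of edgeR 4.0.16 (TMM, filterByExpr, quasi-likelihood test, library as block, 4 residual degrees of freedom; R 4.3.3), Benjamini-Hochberg adjusted over 9429 genes. The SE is the absolute log2 fold change over the root of F. Ratios of single libraries are on the TMM scale with 0.5 UMIs added. Alternatives used DESeq2 1.42.0, other scalings, filters, gates, depths and cells. On simulated counts (9190 genes, neutrophil contrast), 46% of 100 genes with a log2 change of 1 and 89% of 100 with 2 were recovered, with 7 false calls. Only those genes were changed there, at a fixed dispersion of 0.04 and with no library effect. The real contrast called 26.1% of genes higher and 21.7% lower, so these rates check the fit and are not the recovery in the real data.

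In each contrast the text names the 8 called subunit genes with the largest changes per direction, the paralog families, complex II, Cyc1, the mt- genes, and the 3 largest called genes of each other list; further subunits were named by role after their values were seen. Members and lists were chosen with earlier results of these data known. Intervals cover counting error only.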

Additional observations from a re-analysis of the deposited data

Results flagged for a closer look

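Library 2 carries 2 antibody tags, which are not groups of the study's labels and set no group in the main tests: BC2 with 11246566 UMIs and BC3 with 5105170 UMIs over all barcodes. Library 1 has no such rows, and the labels do not say what the tags mark. Among gated cells of library 2, 47 neutrophils lay on the BC2 side and 1544 on the BC3 side, 471 and 9 C1q macrophages, 292 and 49 monocytes, 22 and 15 dendritic cells and 13 and 11 resident macrophages. Whether the sides stand for separate animals or separate preparations was not tested.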

How the results depend on the processing

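With 2 libraries and 4 residual degrees of freedom, genes with a log2 change near 1 can be missed. Counts of calls have no value with 1 library left out, since no residual degrees of freedom remain. Most counts of calls below stand without the share of all genes called in that setting. A change in such a count may therefore hold for genes at large and is not read as a result about the subunits. Medians over the 78 subunit genes without replicate 1 or 2 were -0.478 and -0.316 in neutrophils; in resident macrophages they reversed, from 0.121 to -0.093.

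For neutrophils (4 higher, 36 lower, median -0.42), scaling by summed UMIs alone gave 0 higher, 61 lower and -0.905, and Ndufa7 reversed to -0.023. With no replicate block it was 2 higher and 21 lower; the numbers name libraries that hold every gate, and the block is part of the main design. Gate thresholds at 0.5 times gave 20 lower, and at 2 times a median of -0.569. Without the 5% of cells with most UMIs the median was -0.671, thinned to 1000 UMIs -0.555, and with the gate at 500 -0.838. Limited to the BC2 side, without resident macrophages in the mean, it was 0 higher, 1 lower and -0.151. Levels in neutrophils moved on the BC2 side to 21620 CPM (nuclear-encoded), 11900 CPM (mt-) and a ratio of 1.848, and with the gate at 500 to 12560, 4431 and 2.836; thinned, the ratio was 2.732.

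For resident macrophages 2 genes were higher with DESeq2, with RLE factors and without the 5% of cells with most UMIs, and 0 with no replicate block or thinned. The median reversed to -0.013 with no filter and to -0.172 thinned. Thinned levels were 29000 CPM (nuclear-encoded) and 16940 CPM (mt-). For monocytes the thinned median was -0.085 and the ratio 1.617; for C1q macrophages the thinned mt- level was 17140 CPM and the ratio 1.558.

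For dendritic cells the count lower was 0 with DESeq2, with no replicate block and on the BC2 side, 2 with summed UMIs alone, 4 with no filter and at 2 times the thresholds, and 3 thinned; 1 was higher with no replicate block. Medians were -0.259 (summed UMIs), -0.258 (no filter) and -0.268 (2 times). Nuclear-encoded levels were 22200 CPM at 2 times and 23890 at 0.5 times the thresholds, 23160 without the deepest cells, 22820 thinned and 23930 on the BC2 side; mt- levels were 14090 at 2 times, 15050 thinned and 14940 on the BC2 side; ratios were 1.578 at 2 times and 1.519 thinned. The cause of these shifts was not tested. On the BC2 side 13 resident macrophages remained, so that contrast was not run.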
